A study of Mus musculus with 6 samples.

Results

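The translation initiation factor (Eif) and elongation factor (Eef) genes were followed in bone marrow-derived macrophages from IκBβ-knockout and wild-type mice exposed to lipopolysaccharide (LPS). They were taken by name, as genes whose probe sets are annotated to a single symbol that begins with Eif or Eef. The Eif2ak kinases, which phosphorylate eIF2, and the sex-linked pair Eif2s3x and Eif2s3y were left out. The 22690 probe sets of the array held 106 such probe sets, for 47 genes, and each gene was read from its probe set with the highest mean signal. A further 6 probe sets that carry several symbols, among them those of Eif4a3, Eef1g and Eif3j, were not used. Of the 47 genes, 45 exceeded the median signal of an array at least once and were tested among 7507 genes that did so. The methyltransferase genes Eef1aknmt and Eef2kmt did not.

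The groups were IκBβ-knockout macrophages before LPS (0 h) and after 1 h or 5 h in LPS at 1 µg/ml, and wild-type macrophages at the same times and dose, all given as strain C57BL/6J. The cells had been grown from marrow for 7 days in medium conditioned by L929 cells, which supplies macrophage growth factor. Each of the 6 groups is 1 array, and the sources used here do not say whether arrays share animals. IκBβ is an inhibitor of NF-κB, and LPS is the component of bacterial outer membranes that Toll-like receptor 4 senses, so the design asks how that response runs without IκBβ.

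Translation starts when eIF2 brings the initiator tRNA to the small ribosomal subunit, eIF3 and eIF1A hold that subunit open, and eIF4F (the cap-binding protein eIF4E, the scaffold eIF4G and the helicase eIF4A) recruits the mRNA. Elongation then runs on eEF1, which delivers the aminoacyl-tRNAs, and on eEF2, which moves the ribosome along. In macrophages LPS acts on this machinery through kinases, with Mnk phosphorylating eIF4E and mTOR releasing eIF4E from its binding proteins. The arrays measure only the RNA of these factors, not their protein or phosphorylation.

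Nfkbib, the gene of IκBβ, read 30.5, 136 and 56.1 at 0 h, 1 h and 5 h on the knockout arrays, against 477, 3330 and 5007 on the wild-type arrays. Xist read 2149 to 5634 on the knockout arrays and 52.1 to 80.4 on the wild-type arrays, and Eif2s3y read 0.896 to 10.7 in knockout against 570 to 860 in wild type. The knockout RNA was thus female and the wild-type RNA male, and genotype and sex cannot be told apart. All 8 macrophage markers exceeded an array median, with summed signals of 76120 to 85959 in knockout and 83189 to 91380 in wild type. The 4 B cell markers summed to 3691, 2658 and 363 in knockout and to 3516, 2429 and 342 in wild type at 0 h, 1 h and 5 h, while the 3 T cell markers stayed between 23.1 and 52.7 on every array. Ighm carried most of that sum, at 3571, 2563 and 304 in knockout and 3371, 2308 and 268 in wild type, Cd79b read 111, 84.7 and 30.4 in knockout and 119, 89.1 and 24.9 in wild type, and Cd79a and Ms4a1 never exceeded an array median. The 4 dendritic cell markers summed to 10298 to 11494 in knockout and 10665 to 11698 in wild type, mostly from Cd74. Ccr7, another of them, read 92.9, 78.4 and 236 in knockout and 15.2, 31.2 and 141 in wild type. The 4 neutrophil markers summed to 107 to 220 over the arrays and the 5 fibroblast markers to 92.4 to 214. Among the neutrophil and fibroblast markers, only Camp and Dcn exceeded an array median. The fall of Ighm and Cd79b ran alongside the changes at 5 h, and its part in them was not tested. The depth of an array is not a read count, and the number of arrays limits the precision.

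At 5 h of LPS, a few translation factor genes rose several-fold while others fell as far, in both genotypes. Changes are log2 differences between times from a limma fit with additive terms for genotype and time, given ± SE over the 6 arrays, and a gene was called where its Benjamini-Hochberg adjusted p over all genes was under 0.05. By this rule 7 of 45 genes rose at 5 h (15.6%), beside 19.5% of all genes tested, and 23 fell (51.1%), beside 54% of all genes tested. Their median change was −0.56 and that of all genes −0.57, so the median of the family lay at that of all genes. In bulk RNA a change per cell and a change in the share of a cell type cannot be told apart.

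The scale of the arrays set much of this count. The deposited signals share a trimmed mean, but array medians fell to 65.2 in knockout and 70.7 in wild type at 5 h, against 117 and 114 at 0 h. The median change of all genes at 5 h was −0.22 after quantile normalization, 0.19 after centring each array on its median, and −0.90 after scaling on 9 spiked-in control probe sets. The direction is therefore firmest for genes called the same way under the deposited scale and these 3 others, a criterion chosen after the values were seen. It held for 3 genes that rose (13.9% of all genes did so) and 6 that fell (26.7% of all genes). These were Eif1a, Eif6 and Eif4e, and Eif4ebp2, Eef2k, Eif4b, Eif2b4, Eif5 and Eef1d. Among them, Eef2k passed the signal filter only through its 0 h and 1 h arrays, where it was high. A rise of at least 2-fold in both genotypes with a call was also met by 3 genes (10.5% of all genes), and such a fall by 9 (30.3% of all genes), the further ones being Eif4a2, Eif2b1 and Eif2b2.

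**Figure D1:**
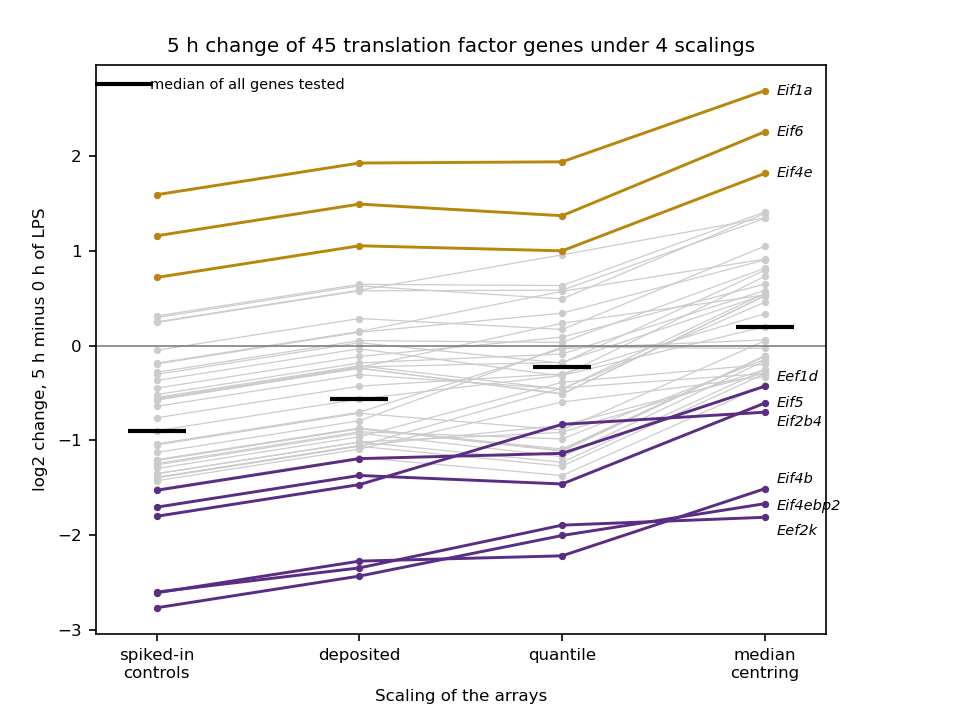
Each line is 1 of 45 translation factor genes, with its log2 change at 5 h minus 0 h of LPS on the vertical axis under the 4 scalings on the horizontal axis. Gold and purple lines are the 3 genes called higher and the 6 called lower under all 4 scalings, grey lines are the others, and black bars mark the median of all 7507 genes, which lies between −0.90 and 0.19.

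Among the factors that handle the initiator tRNA and the start site, Eif1a had the largest rise. It encodes a form of eIF1A, which helps the small subunit scan to the start codon. Eif1a read 689, 1068 and 2777 in knockout and 756, 1158 and 2708 in wild type at 0 h, 1 h and 5 h. Its signal climbed at each step in both genotypes, and the 5 h arrays lay far above the 0 h arrays. The change at 5 h was 1.93 ± 0.11 (adjusted p = 0.000481, limma), or 3.80-fold. Eif1ax, its X-linked counterpart, read 1094, 1172 and 1755 in knockout and 1173, 1276 and 1791 in wild type, a change of 0.65 ± 0.10 (adjusted p = 0.00568, limma). A dimmer probe set of Eif1ax gave −0.38 at 5 h.

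Of 4 genes for subunits of eIF2B, which recharges eIF2 with GTP, 3 fell at the deposited scale and 1 was not called. Eif2b4 read 404, 267 and 155 in knockout and 455, 300 and 156 in wild type, a change at 5 h of −1.47 ± 0.11 (adjusted p = 0.000788, limma). Its signal was lower at each later time in both genotypes. Eif2b1 had changed by −1.06 ± 0.21 and Eif2b2 by −1.06 ± 0.10, while Eif2b5, at −0.23, was not called. Under median centring Eif2b1 and Eif2b2 were not called, at −0.29 each, and Eif2b5 was called higher, at 0.53. Eif2b1 also lost its call under quantile normalization (−0.45, adjusted p = 0.125, limma), with no signal filter (0.0666), without the 0 h knockout array (0.0637) and without the 5 h wild-type array (0.0757). Eif5, whose product makes eIF2 hydrolyse its GTP, read 3405, 2899 and 1160 in knockout and 3400, 2351 and 1492 in wild type, a change of −1.37 ± 0.19 (adjusted p = 0.00391, limma). All 4 probe sets of Eif5 were lower, with changes of −1.37 to −0.42.

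In this group of 11 genes 2 rose, 5 fell and 4 were not called, beside 19.5% of all genes higher and 54% lower. The median was −0.23 and the range −1.47 to 1.93. Under median centring 6 rose and 2 fell, with a median of 0.53, beside 39% of all genes higher and 27.1% lower at that scale. Eif2d, which can also place initiator tRNA, was the further gene that fell (−0.96), but its 3 probe sets ran from −1.43 to 0.17. Those not called were Eif2s2 (the beta subunit of eIF2), Eif5b (the subunit-joining GTPase), Eif1b and Eif2b5, between −0.23 and −0.03. Eif2s2 had probe sets from −1.40 to 0.20, so its reading rests on which of them is used.

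Eif6 encodes a factor that binds the large subunit and keeps it from joining the small subunit too early. It read 1349, 2062 and 3694 in knockout and 1334, 1859 and 3857 in wild type at 0 h, 1 h and 5 h. Both genotypes showed the same steady climb, with the 5 h arrays above every other array. The change at 5 h was 1.49 ± 0.11 (adjusted p = 0.000806, limma), or 2.81-fold, and it stayed between 1.16 and 2.26 under the 3 other scalings.

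The subunits of eIF3, the large scaffold on the small ribosomal subunit, moved down or were not called at the deposited scale. Of 11 subunits tested, 7 fell (Eif3a, Eif3e, Eif3f, Eif3h, Eif3i, Eif3k and Eif3l), beside 54% of all genes, 0 rose and 4 were not called, with a median of −0.87 and a range of −1.06 to −0.21. Eif3f, the lowest, read 7738, 6598 and 3467 in knockout and 8474, 7864 and 4337 in wild type (−1.06 ± 0.11, adjusted p = 0.00175, limma). Eif3c, the highest, read 4054, 3713 and 3468 in knockout and 4408, 3758 and 3833 in wild type, a change of −0.21 ± 0.10. Eif3a, the largest subunit, had changed by −1.02 ± 0.16 and Eif3b by −0.43 ± 0.16, the second without a call. Under median centring, no subunit was called lower, 3 were called higher and the median was −0.11, so the direction of this group depends on the scale. At that scale 39% of all genes were called higher and 27.1% lower. Under quantile normalization 9 of 11 were called lower, beside 40.7% of all genes, and under spiked-in scaling all 11, beside 63.7% of all genes.

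The cap-binding group held large falls as well as rises. Eif4ebp2 encodes 4E-BP2, a repressor that binds eIF4E and blocks its access to eIF4G. It read 1177, 792 and 242 in knockout and 1118, 709 and 187 in wild type at 0 h, 1 h and 5 h. The 5 h arrays were far below the others in both genotypes, with a change of −2.43 ± 0.12 (adjusted p = 0.000419, limma), or 5.40-fold lower. Its 4 probe sets that passed the signal filter had changes of −4.11 to −2.22. The related repressor gene Eif4ebp1 read 1598, 1010 and 762 in knockout and 1608, 1111 and 823 in wild type (−1.02 ± 0.10, adjusted p = 0.00172, limma). That call was lost under median centring, at −0.25, and the 3 probe sets of Eif4ebp1 ran from −1.02 to 0.26.

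Eif4b, whose product stimulates the eIF4A helicase, read 3384, 2985 and 617 in knockout and 3332, 2738 and 781 in wild type. The drop came after 1 h in both genotypes. The change at 5 h was −2.27 ± 0.16 (adjusted p = 0.000656, limma), or 4.84-fold lower, and its 3 probe sets had changes of −2.48 to −1.52. Eif4h, a homologue of Eif4b with a like role, read 4678, 4061 and 3876 in knockout and 4568, 4158 and 3954 in wild type, and was not called (−0.24 ± 0.10, adjusted p = 0.0933, limma). Of the helicase genes themselves, Eif4a2 had changed by −1.18 ± 0.13 (adjusted p = 0.00202, limma) and Eif4a1 by 0.03 ± 0.14 (adjusted p = 0.857, limma). Eif4a1 read 8285, 10142 and 8341 in knockout and 8880, 8669 and 9198 in wild type, while Eif4a2 read 4519, 3528 and 1831 in knockout and 4702, 3471 and 2256 in wild type. The helicase genes thus had unequal changes, although Eif4a2 was no longer called under median centring (−0.42, adjusted p = 0.0501, limma).

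Eif4e, the cap-binding subunit, read 1090, 2516 and 2227 in knockout and 1153, 1595 and 2427 in wild type at 0 h, 1 h and 5 h. Both genotypes were higher at each LPS time than at 0 h, and they differed most at 1 h, where the knockout array was the higher. The change at 5 h was 1.05 ± 0.24 (adjusted p = 0.0166, limma), or 2.07-fold, and at 1 h it was 0.84 ± 0.24 without a call (adjusted p = 0.1, limma). The 5 h call was lost without the 0 h knockout array (adjusted p = 0.0819, limma) and without the 5 h wild-type array (0.0955). It was also lost with no signal filter (0.0839) and with the mean of its 3 probe sets (0.0887), which rose by 0.32 to 1.05 on the log2 scale. Eif4g2 (a relative of eIF4G that lacks the eIF4E site) had changed by 0.63 ± 0.12 and Eif4e2 (a weaker cap-binding protein) by 0.58 ± 0.12, both called, while Eif4e3 (0.14) and Eif4enif1 (0.15), which carries eIF4E into the nucleus, were not called. The 3 probe sets of Eif4g2 that passed the filter had changes of 0.63 to 1.19, with the brightest the lowest. Eif4g3, a scaffold gene, had changed by −0.56 ± 0.16. In the group of 12 genes 3 rose, 5 fell and 4 were not called, with a median of −0.10, beside 19.5% of all genes higher and 54% lower. Under median centring 7 rose and 2 fell, with a median of 0.66, beside 39% of all genes higher and 27.1% lower.

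**Figure D2:**
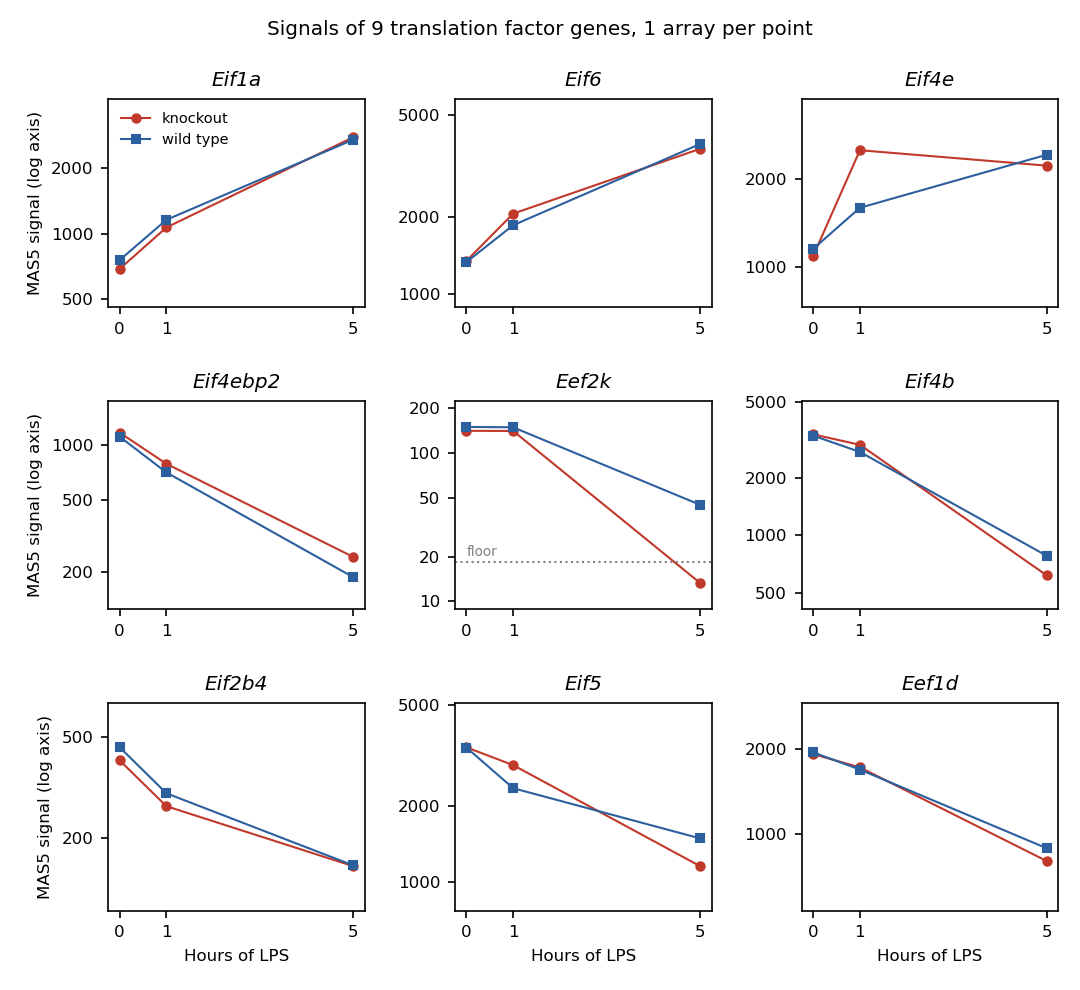
MAS5 signal on a log axis against hours of LPS for the 9 genes called the same way under all 4 scalings, with red circles for knockout and blue squares for wild type and 1 array per point. Eif1a, Eif6 and Eif4e are higher at 5 h than at 0 h and the other 6 genes lower in both genotypes. The dotted line in the Eef2k panel is the floor of 18.3.

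Among the elongation genes, Eef2k had the largest change. Its product, eEF2 kinase, halts elongation by phosphorylating eEF2. Eef2k read 141, 141 and 13.3 in knockout and 150, 149 and 44.8 in wild type at 0 h, 1 h and 5 h, with the 5 h arrays well below the rest. The 5 h knockout signal lay under 18.3, the floor to which dim signals were raised, so the change of −2.95 there is a bound, and the fitted change of −2.35 ± 0.35 (adjusted p = 0.00499, limma) carries that bound. The wild-type value alone was −1.74. Eef2k exceeded an array median only on the 0 h and 1 h arrays, and at 5 h it lay under the medians of 65.2 and 70.7. Its call as lower thus uses the arrays that let it pass the filter. Eef2, the translocase that this kinase acts on, read 9846, 8275 and 4948 in knockout and 10322, 9043 and 6109 in wild type (−0.87 ± 0.12, adjusted p = 0.00339, limma), and under median centring it was not called (−0.11).

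The eEF1 genes did not move as a unit. Eef1a1, the main tRNA-delivering factor, read 18300, 18520 and 18213 in knockout and 19972, 18247 and 21576 in wild type, with no call (0.05 ± 0.12, adjusted p = 0.712, limma). Eef1d, a subunit of the exchange factor that recharges eEF1A, read 1918, 1721 and 802 in knockout and 1945, 1691 and 890 in wild type, a change of −1.19 ± 0.11 (adjusted p = 0.00128, limma). Eef1b2, another exchange subunit, was not called (−0.24 ± 0.11). Eef1e1, which is known mainly as a member of the tRNA synthetase complex, had changed by 0.58 ± 0.12. The calls of Eif1ax, Eif4g2, Eif4e2 and Eef1e1 were lost under spiked-in scaling, at 0.24 to 0.31. Eif5a, whose hypusine-bearing product keeps ribosomes moving at difficult sequences, was at 0.28 ± 0.10 without a call (adjusted p = 0.0586, limma). Of 10 elongation genes tested 1 rose, 6 fell and 3 were not called, beside 19.5% of all genes higher and 54% lower. Their median was −0.75, which became 0.02 under median centring. At that scale 4 rose and 2 fell, beside 39% of all genes higher and 27.1% lower. Eef1akmt1 (−1.09), Eefsec (−0.79) and Eef1a2 (−0.70) were the other genes called lower at the deposited scale. Eef1a2 is known from neurons and muscle, and its signals here were 46.8 to 125. It exceeded an array median only on the 1 h wild-type array (125 against 105), where it was highest. Its call as lower from 1 h to 5 h (−1.05) thus uses the array that let it pass the filter. Under quantile normalization Eefsec (−0.02, adjusted p = 0.941, limma) and Eef1a2 (−0.03, adjusted p = 0.917, limma) were not called. Eef1a2 kept its call in 8 of 15 alternatives, and Eef1akmt1 in 15 of 16, the exception being median centring (−0.33).

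**Figure D3:**
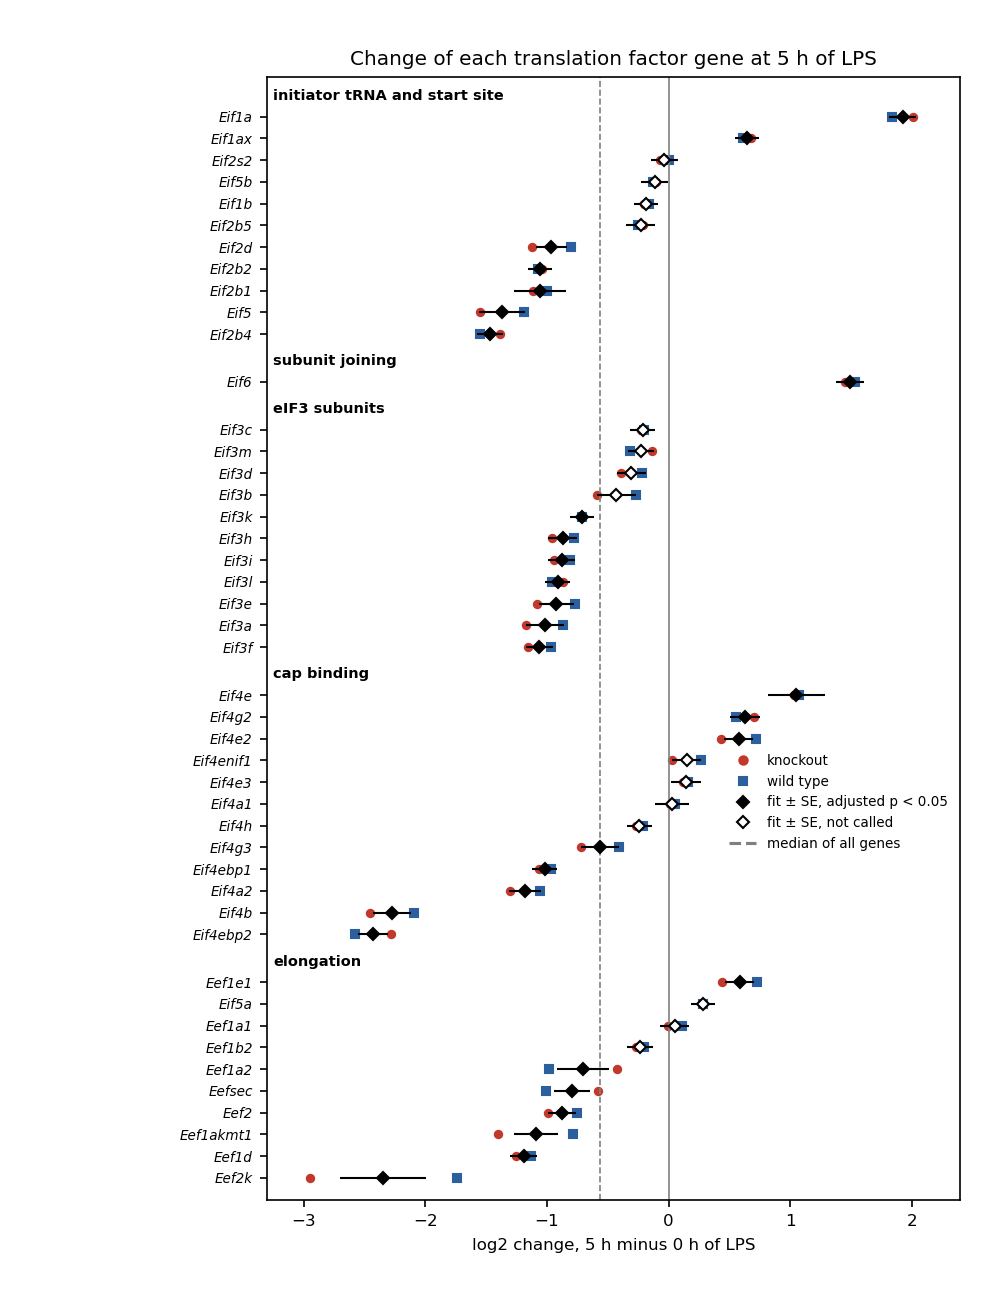
The log2 change at 5 h minus 0 h of LPS for each of 45 genes by role, with the value of each genotype (red circle, knockout, and blue square, wild type) and the fit ± SE (diamond, filled where called). The eIF3 subunits lie between −1.06 and −0.21, on both sides of the dashed median of all genes (−0.57), while Eif1a (1.93), Eif6 (1.49) and Eif4e (1.05) lie to its right and Eif4ebp2, Eef2k and Eif4b below −2.2. The knockout point of Eef2k is a bound.

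At 1 h few of these genes had moved. Eif1a rose, as 1 of 45 genes (5.45% of all genes rose), and Eif2b4 and Eif4ebp1 fell (5.94% of all genes fell). The changes were 0.62 ± 0.11 for Eif1a (adjusted p = 0.042, limma), −0.60 ± 0.11 for Eif2b4 (adjusted p = 0.0447, limma) and −0.60 ± 0.10 for Eif4ebp1 (adjusted p = 0.0417, limma). None of the 3 was called when any of the 6 arrays was left out, although the changes stayed at 0.58 to 0.67 for Eif1a, −0.64 to −0.56 for Eif2b4 and −0.66 to −0.54 for Eif4ebp1. The median over the family was −0.16 and over all genes −0.18. Between 1 h and 5 h, 7 genes rose (18.5% of all genes) and 22 fell (45.5% of all genes). Eif4enif1 had changed by −0.54 at 1 h without a call (adjusted p = 0.069, limma) and then rose by 0.69 on the log2 scale from 1 h to 5 h (adjusted p = 0.0101, limma). Its signals were 443, 278 and 451 in knockout and 409, 308 and 494 in wild type, lowest at 1 h in both. Eif2b1 read 429, 174 and 198 in knockout and 370, 248 and 185 in wild type, lowest at 1 h in knockout and at 5 h in wild type, and its 1 h change of −0.94 was not called (adjusted p = 0.0698, limma).

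Between the genotypes, no translation factor gene was called in the fit over the 3 times (1 of all 7507 genes was called, 0.0133%). No member had an unadjusted p under 0.05 either, where 629 of all genes did, and the lowest adjusted p was 0.587 for Eif3f (limma). The median difference, knockout minus wild type, was −0.06 for these genes and −0.03 for all genes. Differences at single times rest on 1 array each and carry no test. Their SD over the 45 genes was 0.09, 0.20 and 0.27 at the 3 times in order, beside 0.35, 0.40 and 0.48 over all genes. At 0 h the extremes were Eef1a2 (−0.25) and Eif2b1 (0.21). At 1 h they were Eif2b1 (−0.51) and Eif4e (0.66). At 5 h they were Eef2k, at −1.29 or beyond since its knockout signal was under the floor, and Eif4ebp2 (0.37).

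Eif4e at 1 h had the largest difference above 0 at any of the 3 times, while the difference of Eef2k at 5 h, below 0, was larger in size. Its 3 probe sets rose by 1.21, 1.23 and 1.80 in knockout and by 0.47, 0.40 and 0.58 in wild type, each on 1 pair of arrays and without a test. By 5 h the brightest probe set stood at 1.03 in knockout and 1.07 in wild type. In 15 genes knockout was below wild type at all 3 times, in 2, Eif2b2 and Eif4ebp2, it was above, and 28 were of mixed sign. The matching share over all genes was not counted, so these counts are not a trait of the family. The median difference at 0 h, 1 h and 5 h was −0.03, −0.03 and −0.13 for the family. For all genes it was 0.002, −0.02 and −0.06. The largest of the smallest differences were those of Eif3f (−0.13), Eef1e1 (−0.09) and Eef1b2 (−0.08), which are all small beside the changes with LPS. The LPS change had opposite signs in the genotypes for 5 genes at 1 h and 2 at 5 h, and the smaller of the opposed changes was at most 0.05 at 1 h and 0.0069 at 5 h.

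**Figure D4:**
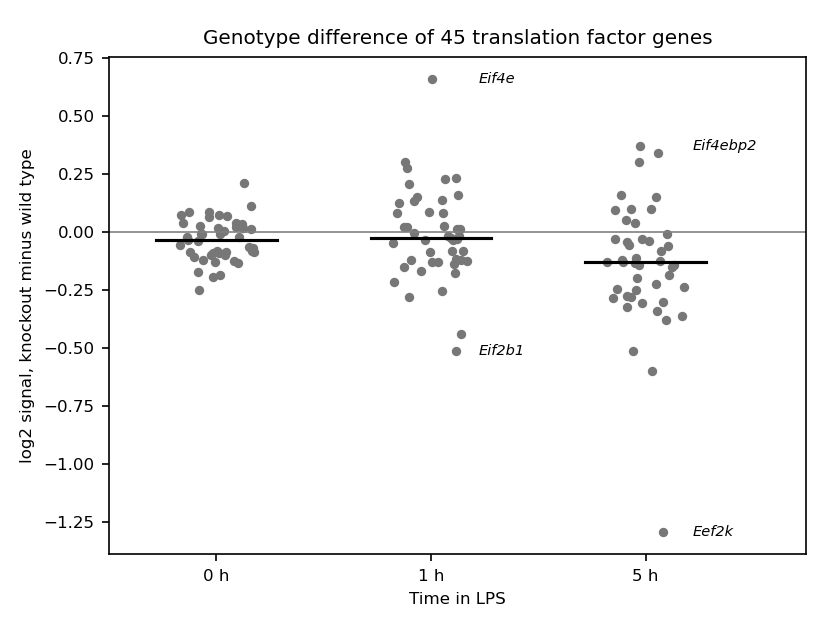
Knockout minus wild type on the log2 scale for 45 translation factor genes at 0 h, 1 h and 5 h of LPS, 1 point per gene, with the median as a bar. The points spread more at 5 h (SD 0.27) than at 0 h (0.09), with Eif4e highest at 1 h and Eef2k, a bound, lowest at 5 h.

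The probe set chosen for a gene mattered for some members. Of 23 genes with at least 2 probe sets above the signal filter, 16 had the same sign at 5 h on all of them, and none had probe sets opposed by 2-fold. The range between probe sets of a gene had a median of 0.59 on the log2 scale. The genes with mixed signs were Eif1ax, Eif2d, Eif2s2, Eif3c, Eif4e2, Eif4e3 and Eif4ebp1. Eif4e2, for example, ran from −0.65 to 0.82 over 4 probe sets.

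**Figure D5:**
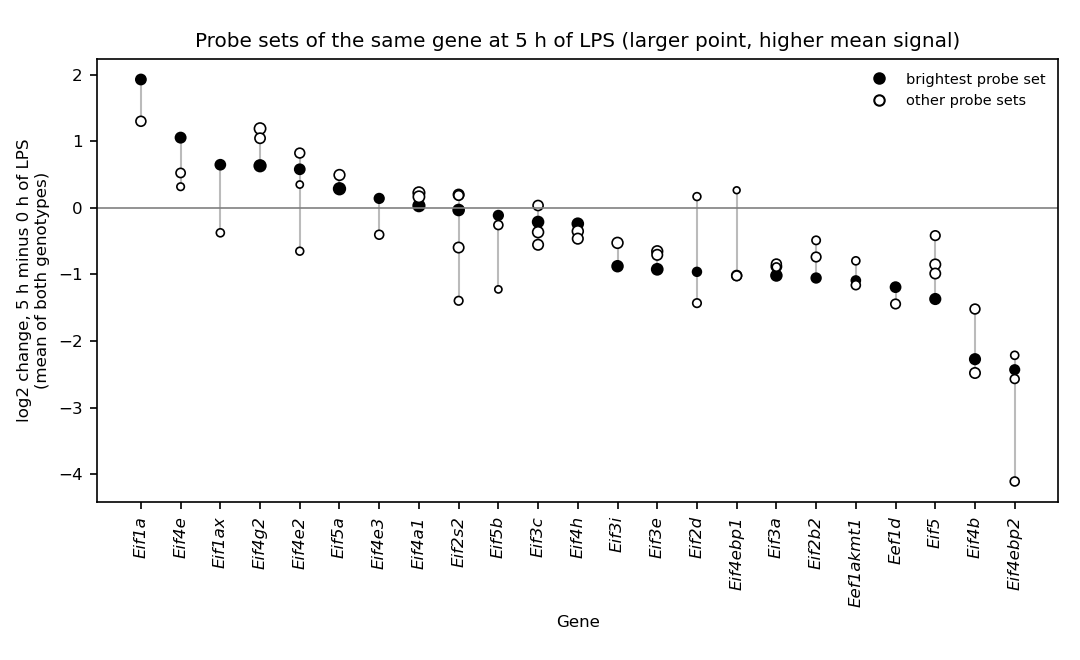
The log2 change at 5 h minus 0 h of LPS, as the mean of both genotypes, for every probe set of the 23 genes with at least 2, filled for the brightest and sized by mean signal. Eif4ebp2, Eif4b and Eif5 lie below 0 on all their probe sets and Eif1a and Eif4e above 0, while Eif2d, Eif2s2 and Eif4ebp1 straddle it.

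The promoters of these genes were read from RefSeq windows of the build GRCm38.p6, from 250 bases before to 50 after a gene's start, which covered 35 of the 45 genes in 49 windows. The E-box CACGTG, a site of Myc and related factors, was in 12 windows (24.5%), beside 7.15% of all 32851 windows. Those 12 windows belong to 10 genes, and windows of a gene can overlap, so that a site can count more than once. All windows here are those of every gene in the reference, not only of the genes tested. The GC box GGGCGG on either strand was in 34 windows (69.4%), beside 35.7% of all, the TATA box TATAAA in 3 (6.12%), beside 13.6%, and the NF-κB consensus in 3 (6.12%), beside 8.46%. The 4 motifs were searched on both strands, and no window was left out for holding more than 1 motif. An E-box was found in 1 of 4 genes that rose at 5 h, 5 of 17 that fell and 4 of 14 not called. A match in these windows is a run of letters and was not tested for binding.

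The windows of 4 genes are shown because these genes had the strongest falls (Eif4ebp2, Eef2k and Eif4b) or the early difference between the genotypes (Eif4e), and because they differ in the E-box, which is in capitals. Eif4e, on the plus strand at chr3:138527018-138527317, holds 2, beginning 228 and 64 bases before the start, and is the second of 2 windows for that gene, the other of which holds none. Eef2k, on the plus strand at chr7:120842581-120842880, holds 1, beginning 31 bases before it, and is the first of 3 windows for that gene, the others of which hold none. Eif4b, on the plus strand at chr15:102073523-102073822, and Eif4ebp2, on the minus strand at chr10:61452620-61452919, hold none. Each reads 5′ to 3′ on the gene's strand.
Eif4e: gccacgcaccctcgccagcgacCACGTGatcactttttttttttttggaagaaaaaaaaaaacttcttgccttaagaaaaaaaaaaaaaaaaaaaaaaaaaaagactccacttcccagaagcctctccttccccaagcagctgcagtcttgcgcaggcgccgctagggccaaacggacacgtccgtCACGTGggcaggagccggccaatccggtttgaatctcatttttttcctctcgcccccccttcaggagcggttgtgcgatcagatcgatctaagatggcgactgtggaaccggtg
Eef2k: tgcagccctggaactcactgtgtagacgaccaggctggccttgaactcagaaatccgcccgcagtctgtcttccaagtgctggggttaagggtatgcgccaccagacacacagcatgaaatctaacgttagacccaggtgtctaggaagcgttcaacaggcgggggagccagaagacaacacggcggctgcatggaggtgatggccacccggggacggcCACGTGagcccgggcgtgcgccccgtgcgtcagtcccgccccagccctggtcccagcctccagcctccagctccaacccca
Eif4b: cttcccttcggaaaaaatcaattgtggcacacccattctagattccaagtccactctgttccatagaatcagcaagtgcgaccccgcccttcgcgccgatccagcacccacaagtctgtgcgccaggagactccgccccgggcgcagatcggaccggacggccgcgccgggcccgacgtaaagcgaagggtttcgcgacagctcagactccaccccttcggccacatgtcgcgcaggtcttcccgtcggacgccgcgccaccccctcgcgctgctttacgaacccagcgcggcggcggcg
Eif4ebp2: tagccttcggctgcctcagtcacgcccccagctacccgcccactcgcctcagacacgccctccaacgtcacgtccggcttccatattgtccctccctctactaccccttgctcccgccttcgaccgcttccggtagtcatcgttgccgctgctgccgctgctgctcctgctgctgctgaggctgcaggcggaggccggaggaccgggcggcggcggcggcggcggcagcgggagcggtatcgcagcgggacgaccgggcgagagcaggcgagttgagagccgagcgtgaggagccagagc

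Other genes of the translation pathway, from lists chosen by role, had larger changes at their extremes. Their counts at 5 h stand beside 19.5% of all genes higher and 54% lower at the deposited scale. Under median centring 39% of all genes were higher and 27.1% lower, and under quantile normalization 26.3% and 40.7%. Of 12 genes of the Mnk and mTOR control of translation 3 rose at 5 h, 6 fell and 3 were not called, with 5 higher and 5 lower under median centring. Mknk2, a kinase of eIF4E, read 3814, 2826 and 151 in knockout and 3836, 2475 and 118 in wild type (−4.84 ± 0.13, adjusted p = 0.00032, limma), and its relative Mknk1 had changed by −1.81 ± 0.10. Pdcd4, an inhibitor of eIF4A, read 796, 738 and 29.5 in knockout and 729, 708 and 27.3 in wild type (−4.74 ± 0.10, adjusted p = 0.00032, limma). Pdcd4 exceeded an array median only on the 0 h and 1 h arrays, where it was high. Larp1, which binds mRNAs of the translation machinery downstream of mTOR, had the highest change (1.82 ± 0.11), followed by Rictor (1.03 ± 0.15) and Rheb (0.84 ± 0.10). Rictor was dim, at 40.2, 32.8 and 86.0 in knockout and 43.3, 44.3 and 84.4 in wild type. It exceeded the array median only on the 5 h arrays, so it was tested only through the arrays where it was high. Mtor itself was at −0.30 without a call. Ddit4, an inhibitor of mTORC1, rose at 1 h by 1.30 ± 0.17 on the log2 scale (adjusted p = 0.0236, limma). The calls of these genes other than Mtor held under the 4 scalings.

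Of 12 genes of the stress response through eIF2 5 rose and 5 fell at 5 h, with 5 higher and 2 lower under quantile normalization and 6 and 2 under median centring. Eif2ak2, the interferon-inducible kinase PKR, read 527, 485 and 2961 in knockout and 388, 363 and 2778 in wild type (2.67 ± 0.14, adjusted p = 0.000422, limma). Eif2ak3, the endoplasmic reticulum kinase PERK, read 509, 319 and 54.4 in knockout and 571, 300 and 42.5 in wild type (−3.49 ± 0.16, adjusted p = 0.00038, limma). Eif2ak3 exceeded an array median only on the 0 h and 1 h arrays, where it was high. Eif2ak4, the amino acid sensor GCN2, was under the floor on both 5 h arrays (3.44 in knockout and 4.05 in wild type), against 111 and 106 at 0 h, so that its changes of −2.60 in knockout and −2.53 in wild type are bounds. Eif2ak4 exceeded an array median only on the 1 h knockout array (107 against 98.7), so it was tested only through that array. The phosphatase subunit genes that reverse eIF2 phosphorylation rose. Ppp1r15a read 437, 2390 and 1167 in knockout and 325, 3419 and 1182 in wild type, highest at 1 h (2.92 ± 0.25, adjusted p = 0.00919, limma), and Ppp1r15b was highest at 5 h (2.85 ± 0.10, adjusted p = 0.00032, limma).

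Of 12 genes of termination, recycling and poly(A) binding 2 rose at 5 h and 8 fell, and under median centring 4 rose and 4 fell, with a list median of 0.24. Denr, a factor of reinitiation, had changed by 1.86 ± 0.12 and Gspt1, the release factor eRF3, by 1.26 ± 0.19, while Paip2b, an inhibitor of poly(A)-binding protein, was lowest (−3.12 ± 0.22). Paip2b exceeded an array median only on the 0 h and 1 h arrays, where it was high. Etf1, the release factor eRF1, rose at 1 h by 0.86 ± 0.14 on the log2 scale (adjusted p = 0.0385, limma). Of 20 cytoplasmic tRNA synthetase genes 5 rose and 13 fell at 5 h, and under median centring 7 rose and 7 fell. Wars, the interferon-inducible tryptophan enzyme, read 440, 328 and 1517 in knockout and 434, 320 and 1814 in wild type (1.92 ± 0.13, adjusted p = 0.000623, limma), and Iars, the isoleucine enzyme, read 565, 450 and 76.3 in knockout and 580, 484 and 101 in wild type (−2.71 ± 0.14, adjusted p = 0.000419, limma). Of 5 mitochondrial factors 3 fell, with Mrrf lowest (−1.78) and Tufm highest (0.40, not called), and under median centring 2 rose and 2 fell. Of 3 genes that modify eIF5A or eEF2 2 fell, with Dph5 lowest (−1.48) and Dhps highest (0.35, not called), and under median centring 1 rose and 1 fell. The medians of these 6 lists at 5 h ran from −0.92 to −0.17 at the deposited scale, beside −0.57 for all genes. Under median centring they ran from −0.16 to 0.50, beside 0.19 for all genes.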

How the data were processed

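RNA of 6 macrophage cultures, 1 for each genotype and time, was measured on Affymetrix Mouse Genome 430A 2.0 arrays. The values are intensity, deposited by the authors as MAS5 signals on a linear scale, per the submitters' processing notes. The sources used here give neither the MAS5 version nor its scaling target. Trimmed means (2% off each end) were 500.2 to 500.3 on the arrays. The samples titled IkB were taken as the knockout that the series describes. Spreads do not cover animals, since nothing says that arrays come from separate ones.

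Signals under 18.3, the 25th percentile, were raised to it, and log2 was taken. Probe sets with 1 gene symbol in GEO's platform annotation (20380, with 691 of several symbols, 64 controls and 1555 of no gene) were kept if above an array median once, and the brightest stood for its gene. limma 3.58.1 in R 4.3.3 fitted genotype and time as additive terms, with 2 residual degrees of freedom and a prior of 2.18. A gene was called where its p, adjusted over 7507 genes by Benjamini-Hochberg, was under 0.05. Values that compare single arrays have no test. The fit was tested on simulated data. Alternatives covered scaling, floor, signal filter, probe sets, an intensity trend, time alone and leaving out each array. The spiked-in scaling used 9 control probe sets, which had changed at 5 h by 0.35 in knockout and 0.32 in wild type on the log2 scale, and 9 newer probe sets of the same controls by 0.19 and 0.18.

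Genes were named by rule: members called with 2-fold changes in each genotype, a fixed list of the best-known factors, the extremes of each role and pathway list, members with the most even genotype difference, those under the floor and those with opposed probe sets. Further genes that complete a count, including Eif1ax and Eif4enif1, were named after their values were seen. The members and lists were chosen with earlier results of these data known.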

Additional observations from a re-analysis of the deposited data

How the results depend on the processing

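Leaving out 1 array at a time gave 0 to 0 genes called higher and 0 to 0 lower at 1 h, and none of the counts at 1 h is firm. At 5 h it gave 2 to 7 higher (2 without the 0 h knockout array, 4 without the 0 h wild-type array) and 20 to 23 lower. Between 1 h and 5 h it gave 2 to 6 higher (2 without either 1 h array) and 7 to 21 lower (7 without the 1 h knockout array, 13 without the 1 h wild-type array). Leaving out any array also lowered the calls over all genes tested, higher and lower, in each of these comparisons. The loss of calls is thus not particular to this family. The median change ran from −0.22 to −0.12 at 1 h and from −0.60 to −0.36 at 5 h (−0.36 without the 5 h knockout array), and that of knockout minus wild type from −0.09 to −0.02.

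Median centring, which by construction removes the fall of the array median, gave 2 higher and 0 lower at 1 h, 21 higher and 6 lower at 5 h, and 18 higher and 4 lower between 1 h and 5 h, with medians of 0.014 at 1 h and 0.20 at 5 h. Of the calls at 5 h, 77.8% were then higher, beside 23.3% at the deposited scale. The calls over all genes shifted as well, from 19.5% higher and 54% lower at the deposited scale. Median centring called 39% of all genes higher and 27.1% lower at 5 h. At 1 h it called 7.19% and 3.64%, and between 1 h and 5 h 36.4% and 24.2%. It turned the sign at 5 h of Eef1a2 (0.060), Eef1b2 (0.53), Eif1b (0.58), Eif2b5 (0.53), Eif2s2 (0.73), Eif3c (0.55), Eif3d (0.46), Eif3k (0.049), Eif3m (0.54), Eif4g3 (0.20), Eif4h (0.52) and Eif5b (0.65). Spiked-in scaling gave 0 higher and 3 lower at 1 h, and 3 higher and 33 lower at 5 h, with a median of −0.90 at 5 h. It called 13.9% of all genes higher and 63.7% lower at 5 h. Between 1 h and 5 h it gave 3 higher and 26 lower, beside 12.8% and 55.8% of all genes. At 1 h it called 5.18% of all genes higher and 8.06% lower. Quantile normalization gave 1 lower at 1 h, beside 4.85% of all genes.

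At 1 h the count of genes higher, 1 as reported, was 2 with the floor at the 40th percentile, 0 with no filter, 3 with a filter on all 6 arrays, 0 with the mean of probe sets, 3 with an intensity trend and 2 with time alone. The count of genes lower, 2 as reported, was 4, 0, 6, 1, 7 and 4 under the same settings and 1 with the floor at the 10th percentile. The shares of all genes called higher were 6.21%, 1.19%, 7.93%, 5.81%, 7.98% and 5.67% under the same settings in order. Those called lower were 9.51%, 0.831%, 12.5%, 6.53%, 12.2% and 7.31%, and 4.97% with the floor at the 10th percentile. The calls over all genes thus moved with these settings as well. The filter on all 6 arrays moved the 5 h median to −0.43. The cause of these differences was not tested. Of the 30 genes called at 5 h, 2 that rose (Eif1a and Eif6) and 6 that fell (Eif4ebp2, Eef2k, Eif4b, Eif2b4, Eif5 and Eef1d) were called the same way under every alternative in which they were tested, and 22 were not. Eef2k was not tested with the filter on all 6 arrays, since its 5 h signals lay under the array medians. The genotype term takes each change over time within a genotype, and time alone is the fit without it. Dim probe sets, such as that of Eef2k, are limited by the floor.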
